A study of Mus musculus with 2 samples.

Results

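A small population of mouse cells carried mRNA of Kdr, Etv2, Tal1, Lmo2 or Hand1, genes of early mesoderm and of its blood-vessel and blood progenitors. They came from a droplet-based single-cell RNA-seq experiment on 2 cultures labelled with cell line Delmix: embryoid bodies at day 2, grown from epiblast stem cells, and untreated epiblast stem cells. Each culture was 1 sample, and both were dissociated with trypsin. The counts lay in 1 pooled matrix with no table tying cells to cultures, so no culture was compared with the other and no p-value or standard error exists for any value. Kept cells had 1000 genes or more and no more than 10% of UMIs from mitochondrial genes (unique molecular identifiers, each marking 1 captured mRNA). A kept cell belonged to the population with at least 3 UMIs summed over the 5 genes. It also had to hold fewer than 5 UMIs of the macrophage genes Lyz2, C1qa, C1qc and Ccl6 and fewer than 5 of the collagen and matrix genes Col3a1, Col1a1, Col1a2 and Dcn. The rule found 197 of 16841 kept cells (1.17%, exact binomial 95% interval 1.01 to 1.34%), out of 21593 called cells. Another 14 kept cells reached the 3 UMIs but passed a limit, 5 on the macrophage side and 9 on the collagen side. Intervals here cover counting error only.

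As background, KDR is VEGF receptor 2, the main receptor through which VEGF-A acts on endothelial cells and their precursors. ETV2 is an ETS-family transcription factor needed in the mouse embryo for blood and vessel formation. TAL1, a basic helix-loop-helix factor, and LMO2, an adaptor protein with LIM domains, sit in 1 complex with E proteins, LDB1 and GATA factors. HAND1 is a basic helix-loop-helix factor of extraembryonic and lateral plate mesoderm, the heart and trophoblast giant cells. In the gastrulating mouse embryo such mesoderm leaves the primitive streak, and a KDR-positive part of it gives rise to blood islands and vessels.

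The rule chose the cells by these 5 genes, so their levels are a description. The levels are CPM: the UMIs of a gene were summed over a set of cells and scaled to the set's total. Kdr was at 163 CPM in the cells of the rule against 1.16 CPM in the 16644 other kept cells. Lmo2 was at 156 against 3.03 CPM. Etv2 was at 114 against 4.90 CPM, and Tal1 at 51.0 against 1.16 CPM. Hand1 was at 178 against 2.38 CPM. Kdr had a UMI in 122 of the 197 cells, Lmo2 in 91, Hand1 in 90, Etv2 in 88 and Tal1 in 49. The sum over the 5 genes had a lowest value of 3, a median of 5 and a highest of 16 UMIs per cell. A single gene made up the sum in 50 cells, while 75 cells had UMIs of 2 genes, 50 of 3, 20 of 4 and 2 of all 5. Thus most cells were chosen on few molecules, and a gene at 0 in a cell may have been missed at this depth.

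Promoter sequence is shown for Kdr and Tal1, whose windows held motif letters of ETS or basic helix-loop-helix factors, both among the rule genes, or of GATA factors, partners of TAL1 and LMO2. RefSeq windows on GRCm38.p6, from 250 bases before to 50 after a gene's start, were matched for 3 of the 5 rule genes (Kdr, Etv2 and Tal1, the last with 2 windows); Hand1 and Lmo2 complete the 5. Capitals mark matches to 3 motifs, searched on both strands. The core bound by ETS factors was spelled CCGGAA. For GATA factors the letters searched were AGATAA. The E-box of basic helix-loop-helix factors was spelled CAGNTG. No match overlapped another in these windows. The Kdr window, chr5:75978406-75978705 on the minus strand, held 1 ETS core and 1 E-box. The first Tal1 window, chr4:115056176-115056475 on the plus strand, held 1 GATA motif and 1 E-box. The second Tal1 window and the Etv2 window held none of these letters. Among all 32851 RefSeq windows of 300 bases, 14.9% held the ETS core, 11.2% the GATA motif and 51.4% the E-box.
Kdr: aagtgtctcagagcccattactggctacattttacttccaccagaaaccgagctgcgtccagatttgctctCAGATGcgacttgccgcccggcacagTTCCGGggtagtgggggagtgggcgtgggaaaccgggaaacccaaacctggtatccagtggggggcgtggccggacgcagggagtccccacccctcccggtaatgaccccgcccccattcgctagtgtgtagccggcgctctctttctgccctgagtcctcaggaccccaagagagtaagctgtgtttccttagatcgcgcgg
Tal1: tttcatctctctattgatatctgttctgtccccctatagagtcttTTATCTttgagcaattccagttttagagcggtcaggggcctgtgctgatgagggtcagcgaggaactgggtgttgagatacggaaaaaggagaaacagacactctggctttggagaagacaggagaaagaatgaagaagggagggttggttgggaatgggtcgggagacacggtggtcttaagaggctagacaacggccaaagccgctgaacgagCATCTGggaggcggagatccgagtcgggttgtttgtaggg

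Vessel genes and Hand1 were spread over the cells in overlapping ways. Hand1 without any of the other 4 genes was the most frequent single combination, with 26 cells. Kdr with Hand1 followed with 20 cells, then Kdr with Etv2 and Lmo2 with 14 cells. In all, 64 cells had Hand1 and at least 1 of the 4 vessel genes, and 107 had vessel genes and no Hand1 UMI. Lmo2 had a UMI in 34 of the 49 cells with Tal1 (69.4%, 54.6 to 81.7%) and in 57 of the 148 without it (38.5%). Etv2 had a UMI in 24 of the 90 cells with Hand1 (26.7%, 17.9 to 37.0%) and in 64 of the 107 without it (59.8%). Kdr had a UMI in 50 of the 90 cells with Hand1 (55.6%, 44.7 to 66.0%) and in 72 of the 107 without it (67.3%). The minimum on the summed UMIs ties these counts to each other, and they are given as a description.

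**Figure D1:**
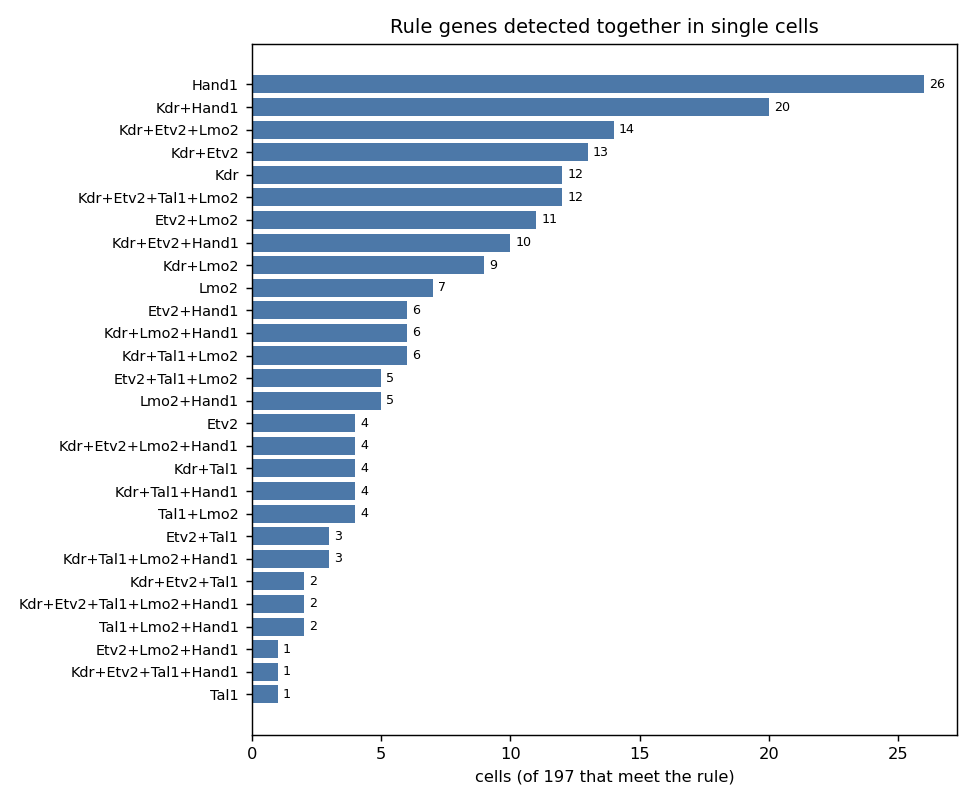
Cells (horizontal axis, of 197) by the combination of rule genes with at least 1 UMI. Hand1 alone (26 cells) and Kdr with Hand1 (20 cells) were the most frequent of the combinations seen, and only 2 cells had UMIs of all 5 genes.

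The cells of the rule had a median of 7056 UMIs (1825 to 29121) and 2908 genes, against 6468 UMIs and 2680 genes in other kept cells. Their median mitochondrial share was 2.58% against 3.14%. Scrublet, a doublet caller, marked 39 of them (19.8%, 14.5 to 26.1%) against 12.7% of other kept cells. A second set served as the nearest comparison: 525 kept cells outside the population with at least 3 UMIs of T, Mixl1, Eomes and Mesp1, genes of the primitive streak and nascent mesoderm, here called streak-rule cells. They had a median of 7108 UMIs, and 21.5% were marked as doublets. Another set, the naive-rule cells, stands for cells that should lack mesoderm mRNA. These were 4348 kept cells with at least 5 UMIs of Zfp42, Esrrb, Tfcp2l1 and Klf4, genes of naive pluripotency. Cells of the rule and streak-rule cells were left out of this set. Of the cells of the rule, 90 (45.7%, 38.6 to 52.9%) also reached the streak minimum, which is 14.6% of the 615 cells that met both limits and that minimum. The 54 cells with exactly 3 rule UMIs, just inside the minimum, had Pmp22 at 250.1 CPM and Fli1 at 70.8 CPM; the 146 cells with 2, just outside, had 115 and 13.3 CPM.

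Many genes of the streak and nascent mesoderm, of lateral plate mesoderm and of early blood-vessel regulation were at higher levels in the cells of the rule than in other kept cells, with Nodal and Tcf15 among those that were lower. Many pluripotency genes were lower. A gene was called when the levels differed at least 2-fold, with at least 20 CPM on the higher side and 1 CPM added to both. A gene below 20 CPM in other kept cells could thus be called only through the cells of the rule. Counts of list genes called higher are therefore given as a description. Of 7263 genes that reached 20 CPM on a side, 369 were called higher (5.08%) and 386 lower (5.31%), and the median log2 ratio over all of them was 0.06. The 25 genes with the highest ratio among those at 50 CPM or more were led by Prdm6, a PR-domain transcriptional regulator, at 309.9 CPM (283.5 to 338.0) against 6.71 CPM. Cyp26a1, the enzyme that breaks down retinoic acid, was at 169.5 against 4.34 CPM. Fgf10, a secreted FGF, was at 219.9 against 6.35 CPM, and Fgf3, another FGF ligand, at 52.3 against 1.19 CPM. The other genes of that group fell into recognisable kinds. Transcription factors were Mixl1 and Lhx1 (homeobox factors of the streak and its mesoderm), Mesp1 (the basic helix-loop-helix factor of the earliest cardiovascular mesoderm), Fli1 (an ETS factor of endothelium and blood), Gata4, Gata6, Msx1 and Msx2. Secreted proteins and their modulators were Bmp2, Bmper (a BMP-binding protein of endothelial precursors), Igfbp4, Rspo3 (an enhancer of WNT signalling) and the proprotein convertase Pcsk5. Surface and signalling proteins were Nrp1 (a co-receptor of VEGF and semaphorins), Unc5c (a netrin receptor), Vldlr, Pmp22, Vstm2b, Amot (angiomotin), Asb4 and Rhoj.

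**Figure D2:**
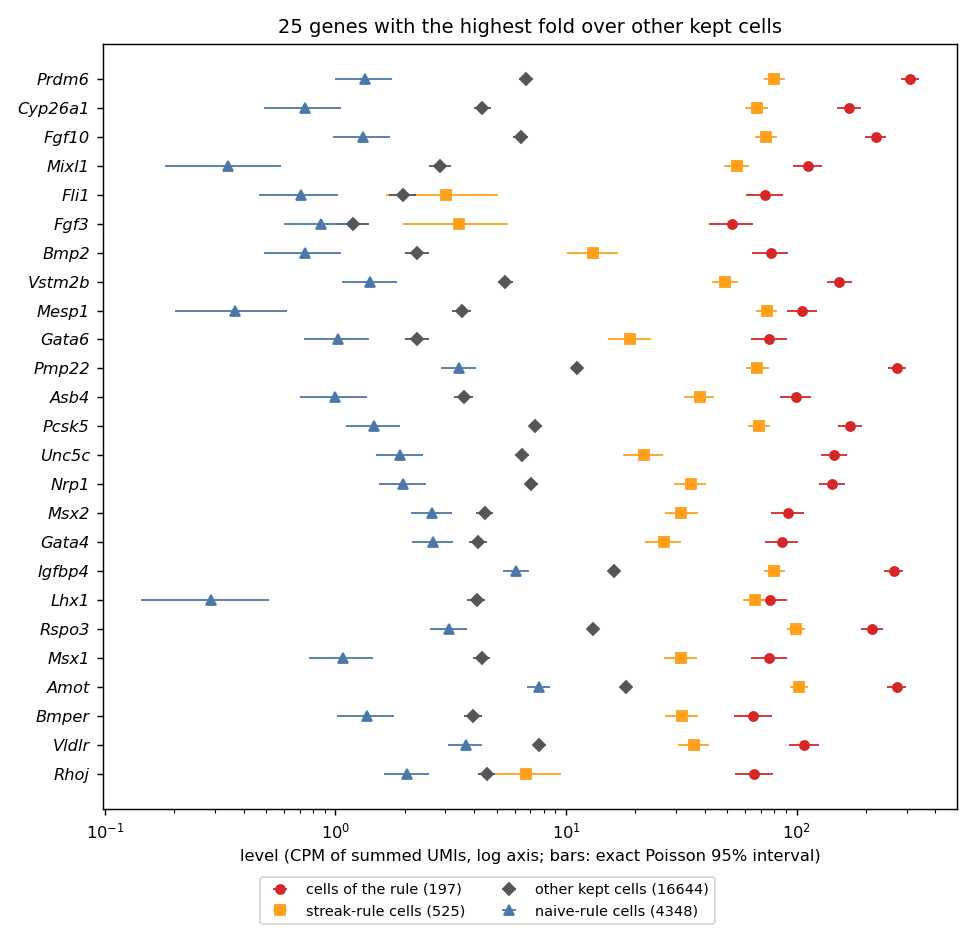
Level in CPM (log axis) of the 25 genes with the highest ratio over other kept cells, in the cells of the rule and 3 comparison sets, with exact Poisson 95% intervals. Prdm6 stood at 309.9 CPM in the cells of the rule, 80.1 in streak-rule cells, 6.71 in other kept cells and 1.34 in naive-rule cells, while Fli1, Fgf3 and Rhoj were below 10 CPM in every comparison set.

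Several of these genes were detected in many cells of the population. Prdm6 had a UMI in 142 of the 197 cells, with a median of 2 and a highest of 13, and the top cell held 2.5% of its UMIs. Pmp22 had a UMI in 139 cells (median 2, highest 12) and Fgf10 in 115 (median 1, highest 13). Fli1 was narrower, in 47 cells with a highest of 13 UMIs, and Mesp1 was in 42 cells, with 24 of its 174 UMIs in 1 cell. To compare shares at 1 depth, each cell was thinned to 2000 UMIs, which left 196 cells of the rule. Prdm6 then had a UMI in 41.8% of them (34.8 to 49.1%), against 12.6% of streak-rule cells, 0.95% of other kept cells and 0.23% of naive-rule cells. Fli1 had a UMI in 14.8% (10.1 to 20.6%), against 0.19% of streak-rule cells, 0.36% of other kept cells and 0.02% of naive-rule cells. Runx1, the transcription factor needed for definitive blood formation, had a UMI in 13.3% (8.85 to 18.8%), against 4.19, 1.29 and 0.28% in the same sets. These shares lay above those of the naive-rule cells, which stand for background from free RNA.

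Several regulators of the haematoendothelial lineage were present, and markers of differentiated endothelium were low. Outside the 4 rule genes on the haematoendothelial list, 7 of 26 genes reached 20 CPM on a side; 6 were called higher and none lower. Those 6 were below 20 CPM in other kept cells and so reached the minimum only through the cells of the rule, which makes their count a description. Fli1 was at 72.9 CPM (60.4 to 87.2) against 1.96 CPM in other kept cells. Gata2, a zinc-finger partner of TAL1 and LMO2, was at 21.9 CPM (15.3 to 30.3) against 1.76 CPM. Hhex, a homeobox factor of haemangioblasts and endoderm, was at 34.0 against 6.03 CPM. Ramp2, the partner of the adrenomedullin receptor in endothelium, was at 59.5 against 14.9 CPM, Egfl7, a secreted endothelial protein, at 58.9 against 18.2 CPM, and Flt1, VEGF receptor 1, at 23.7 against 8.23 CPM. Below the minimum, Sox7, an early endothelial SOX factor, was at 14.6 CPM (9.34 to 21.7) against 0.71 CPM. Cdh5, which encodes VE-cadherin, was at 11.5 CPM (6.95 to 18.0) against 0.19 CPM, from 19 UMIs in 11 cells. Pecam1 was at 14.0 against 17.2 CPM, from 23 UMIs in 16 cells, and Eng at 5.47 against 17.5 CPM. Tek, Tie1 and Erg had 1 UMI each over the 197 cells. Emcn and Cldn5 had none, which allows up to 3 UMIs in the set. The label of blood-vessel progenitors comes from the rule genes, and the called genes above give no separate support for it. Surface genes of formed vessels such as Pecam1, Eng and Emcn were low. The label describes the summed set and is not shown for each cell. Gata2 had a UMI in 29 cells, Hhex in 38 and Sox7 in 16. Outside the rule genes, the median cell of the rule held 1 UMI of the list, as did the median other kept cell. None was found in 58 of the 197 cells, against 43.8% of other kept cells.

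Of 20 primitive blood genes, only Runx1 reached 20 CPM, at 83.8 CPM (70.4 to 99.1) against 7.52 CPM in other kept cells. Gata1, the master regulator of red cells, had 4 UMIs, and Itga2b, the CD41 surface marker of early blood, had 3. The embryonic globins Hbb-bh1, Hba-x and Hbb-y were among 8 blood genes with no UMI in the 197 cells. For the LMO2 and TAL1 complex and its E proteins, 11 of 14 genes reached the minimum; Gata2 and Runx1 were called higher and none lower. The bridging protein gene Ldb1 was at 35.8 against 31.9 CPM, and the E protein genes Tcf3 and Tcf12 were at 108 against 87.1 CPM and at 224 against 154 CPM. Of the ETS and FOX factors, 10 of 15 reached the minimum. Fli1, Ets1 (46.8 against 7.73 CPM) and Etv6 (127 against 48.1 CPM) were called higher, while Etv5 and Foxo1 were called lower.

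Genes of lateral plate mesoderm were among the higher ones. Of 21 lateral plate and extraembryonic mesoderm genes outside the rule, 9 reached the minimum and were called higher. All 9 were below 20 CPM in other kept cells, so they reached it only through the cells of the rule, and nothing is read from their count. They were Hand2, Bmp4, Msx1, Msx2, Tbx3, Tbx20, Gata4, Gata6 and Pmp22. Pmp22 was at 273 CPM (248 to 299) against 11.2 CPM, Gata6 at 75.9 against 2.27 CPM, and Bmp4 at 108 against 17.0 CPM. Hand2, the relative of Hand1, was at 31.0 against 1.49 CPM. The 9 genes were also called higher against all streak-rule cells, but among cells with more of the sample tag CMO312 than of CMO311, only Hand2 and Gata6 of them were. Of 14 cardiac genes only Ryr2 reached the minimum, at 24.3 against 28.9 CPM. Of 16 primitive streak genes, 8 reached it; T, Mixl1, Eomes, Wnt3, Evx1 and Lhx1 were called higher and Nodal lower. Mixl1 was at 112 against 2.85 CPM and Eomes at 197 against 16.7 CPM. Of 16 nascent and paraxial mesoderm genes, 7 reached it; Mesp1 (106 against 3.52 CPM), Rspo3 (213 against 13.1 CPM), Aplnr (24.9 against 1.15 CPM) and Pdgfra (23.1 against 5.60 CPM) were called higher. Tcf15, a factor of paraxial mesoderm and primed epiblast, was called lower (37.7 against 92.1 CPM). Mixl1, Eomes, Evx1, Lhx1, Mesp1, Rspo3, Aplnr and Pdgfra were also below 20 CPM in other kept cells, so they reached the minimum only through the cells of the rule. The presomitic genes Msgn1 and Hes7 had no UMI in the 197 cells.

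Genes of several signalling pathways were higher than in other kept cells. Of the VEGF and apelin list, 11 of 18 genes reached the minimum. Vegfa, Flt1, Nrp1, Nrp2 and Aplnr were called higher and Apela and Pdk1 lower. Pdk1, also on the glycolysis and hypoxia list, encodes a pyruvate dehydrogenase kinase and is not itself a VEGF or apelin gene. Nrp1 was at 142 CPM (125 to 162) against 7.08 CPM, and Nrp2, the co-receptor that also binds VEGF-C, at 170.1 against 16.8 CPM. Apela, a ligand of the apelin receptor APLNR, was at 51.6 against 121 CPM. Of the BMP targets and inhibitors, 7 of the 9 genes that reached it were called higher. Id1 (346 against 133 CPM) and Id3 (379 against 109 CPM), inhibitors of basic helix-loop-helix factors, were among them, as were Smad6, Msx1, Msx2, Bambi and Bmper. Of 14 BMP and TGF-beta ligand and receptor genes, Bmp2, Bmp4, Bmp5, Bmpr2, Tgfb1 and Tgfb2 were called higher, and Nodal and Lefty1 lower. Bmp2 was at 77.2 against 2.27 CPM. Of 11 WNT genes, 8 were called higher and none lower. Among the higher ones were the receptor gene Lgr5 (39.5 against 1.62 CPM), the inhibitor gene Dkk1 (26.1 against 1.24 CPM) and the feedback target Axin2 (38.9 against 16.1 CPM). Of 7 Notch genes, Notch3, Hes1 and Nrarp were called higher. Of 12 FGF genes, Fgf3 and Fgf10 were called higher and Fgf4, Fgf5 and Etv5 lower. Many of the higher genes in these pathways were below 20 CPM in other kept cells. They reached the minimum only through the cells of the rule. Among them were Vegfa, Flt1, Nrp1, Nrp2, Aplnr, Bmp2, Bmp4, Bmp5, Tgfb1, Msx1, Msx2 and Bmper. Axin2, Dkk1, Lgr5, Nkd1, Wnt5b, Nrarp, Fgf3 and Fgf10 were others. Counts of higher genes here are therefore a description. Against streak-rule cells, 3 of 13 genes of the VEGF and apelin list were called higher and 1 lower. For BMP targets and inhibitors it was 5 of 9 and none, and for the ligands and receptors 4 of 14 and 2. For WNT genes it was 3 of 14 and 2, for Notch genes 1 of 7 and none, and for FGF genes 2 of 11 and 3. Over all genes it was 2.3 and 2.51%. Among cells with more CMO312, only Smad6 of 9 BMP targets and inhibitors was called higher than in streak-rule cells.

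Most of the mesenchymal genes measured were higher than in other kept cells, and epithelial genes went both ways. Of the 9 EMT and mesenchymal genes that reached the minimum, 8 were called higher: Zeb1, Zeb2, Twist1, Vim, Fn1, Cdh2, Cdh11 and Tgfb1i1. Fn1, which encodes fibronectin, was at 827 CPM (784 to 872) against 179 CPM, and Cdh2, which encodes N-cadherin, at 213 against 34.2 CPM. Of the 13 epithelial adhesion genes, 6 were called lower, among them Cdh1, which encodes E-cadherin (75.3 against 197 CPM), and Epcam (139 against 356 CPM). Krt8, Krt18 and Dsp were called higher on the same list. Against streak-rule cells, 4 of 10 EMT and mesenchymal genes were called higher (Fn1, Cdh11, Tgfb1i1 and Sparc) and none lower. Of 12 epithelial adhesion genes, none was called in either direction there. Over all genes the shares were 2.3 and 2.51%. Among cells with more CMO312, none of 11 EMT and mesenchymal genes was called higher than in streak-rule cells, and Snai1 was called lower. Of 11 basement membrane and vascular matrix genes, Col4a1 (125 against 14.2 CPM), Col4a2 (80.2 against 9.34 CPM) and Fbn2 (74.1 against 8.95 CPM) were called higher and none lower. Among 12 imprinted genes, H19, Peg3, Mest and Slc38a4 were called higher and Grb10 lower; Peg3 was at 1320.2 against 153 CPM and Mest at 637 against 125 CPM. Only Hoxb2 of the Hox genes reached the minimum, at 56.5 against 7.57 CPM. Col4a1, Col4a2, Fbn2 and Hoxb2 were below 20 CPM in other kept cells, so they reached it only through the cells of the rule. Of 20 S phase and 20 G2/M genes, none was called in either direction. Of 13 glycolysis and hypoxia genes, Vegfa was called higher and Pdk1 lower, and of 9 immediate early genes, Fos and Junb were called higher. Vegfa and Fos were also below 20 CPM in other kept cells.

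**Figure D3:**
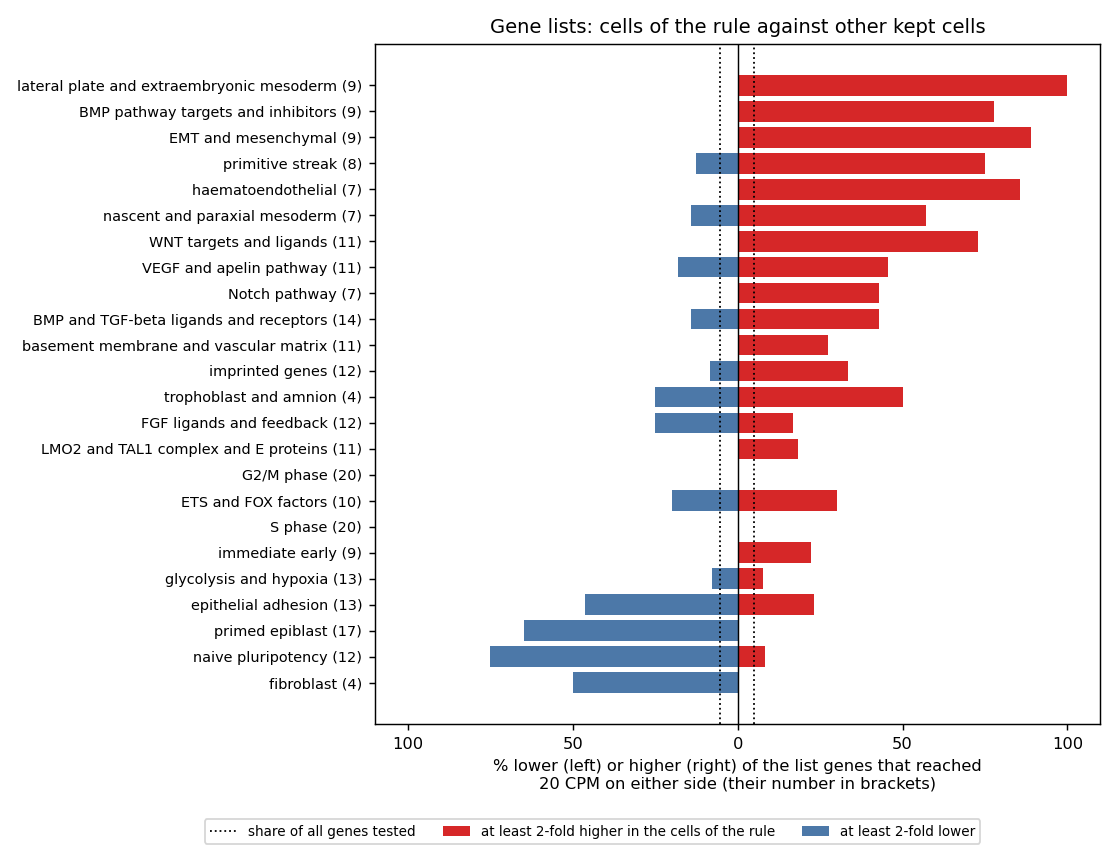
Share of list genes called at least 2-fold higher (right) or lower (left) in the cells of the rule than in other kept cells, for lists with at least 4 genes at 20 CPM on a side. Dotted lines give the shares over all genes tested (5.08 and 5.31%). The 9 lateral plate genes shown reached the minimum only through the cells of the rule, as did some higher genes of other lists. Of 12 naive pluripotency genes, 9 were called lower.

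Pluripotency mRNA was lower than in other kept cells but not absent. Of 12 naive pluripotency genes, 9 were called lower and only Tbx3, also a lateral plate gene, higher, with a median log2 ratio of -1.38. Against streak-rule cells, 7 naive genes reached the minimum. Of these, Dppa3 and Nanog were called lower and Tbx3 higher, with a median of -0.08. The naive list summed to 670 CPM in the cells of the rule, 636 in streak-rule cells and 1641 in other kept cells. Zfp42, which encodes REX1, was at 146 CPM against 428 CPM in other kept cells. Of 17 primed epiblast genes, 11 were called lower and none higher, with a median of -1.20. Against streak-rule cells, 7 of 18 primed genes were called lower and none higher, with a median of -0.78. Pou5f1, which encodes OCT4, was at 211 CPM (189 to 234), against 440.2 CPM in streak-rule cells, 554 in other kept cells and 614 in naive-rule cells. It had a UMI in 87 of the 197 cells (44.2%, 37.1 to 51.4%), against 88.7% of other kept cells. Pim2, Pou3f1 and Utf1 led the primed genes, with Pim2 at 50.4 against 191 CPM. Of the population, 20 cells (10.2%) also reached the naive minimum; their median depth was 15705 UMIs, and 17 of them were marked as doublets. Without all marked doublets, 158 cells of the rule and 14536 other kept cells remained, and Pou5f1 was at 93.5 against 552 CPM. The lowest genes at 50 CPM or more in other kept cells were Ly6a, Ccl7, Mmp3, Ccl2, Spp1, Crabp1, Tenm1, Dppa3, Bnc2, S100a6, Pim2 and Sycp3. Ccl2, a chemokine gene, was at 4.86 against 90.8 CPM, and Spp1, which encodes osteopontin, at 40.1 against 341 CPM. The other kept cells, unlike the cells of the rule, were under no limit of macrophage or collagen UMIs.

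Markers of other cell types were not uniformly low, and some genes of the endoderm, neuroectoderm and trophoblast lists were called higher. No macrophage gene outside the rule reached 20 CPM; 8 of the 14 on the whole list had no UMI, and 184 of the 197 cells had none of the list. Of the fibroblast genes outside the rule, S100a4 and Mmp3 were called lower and none higher. Among cells with more CMO312, Fbn1 (24.5 against 8.12 CPM) and Fbln2 (36.4 against 6.83 CPM), the 2 of them at the minimum, were both called higher and none lower. The other kept cells were under no macrophage or collagen limit, so nothing is read from low macrophage and fibroblast levels against them. Against streak-rule cells, which met the same limits, Fbn1 was called higher and no fibroblast gene lower. The fibroblast genes outside the rule summed to 89.9 CPM in the cells of the rule and 53.4 CPM in streak-rule cells. Of 2 endoderm genes at the minimum, Amot was called higher, while Afp, Ttr, Apoa1 and Hnf4a had no UMI. The endoderm list summed to 371 CPM in the cells of the rule, 290 in streak-rule cells and 188 in other kept cells. Of 3 neuroectoderm genes at the minimum, Ncam1 was called higher. Of 4 trophoblast and amnion genes at the minimum, Krt8 and Krt18 were called higher and Igfbp3 lower. Without marked doublets, 7 reached it, and Gata3, Tead4, Krt8 and Krt18 were called higher and Igfbp3 lower. Gata3 had 31 UMIs in 24 of the 197 cells, Tfap2c 42 in 29, Krt7 14 in 5 and Plac1 12 in 10, while Elf5, Tpbpa, Prl3d1 and Prl2c2 had no UMI. The summed level of the trophoblast and amnion list was 359 CPM in the cells of the rule, 340.3 in streak-rule cells and 173 in other kept cells. Within the population it was uneven. The sum was 1234 CPM in cells with Hand1 and no vessel gene, 276 in cells with both and 209 in cells with vessel genes and no Hand1.

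Against streak-rule cells, Fli1 and other early vessel genes were higher, and Fst and Meis2 were lower. Of 7209 genes that reached 20 CPM on a side, 166 were called higher (2.3%) and 181 lower (2.51%). Fli1 was at 72.9 against 3.02 CPM, Fgf3 at 52.3 against 3.45 CPM and Rhoj at 65.6 against 6.68 CPM. The type IV collagen gene Col4a2 was at 80.2 against 11.0 CPM, and the imprinted RNA H19 at 156 against 24.1 CPM. Unc5c, the growth arrest gene Gadd45g (54.1 against 7.97 CPM) and Bmp2 completed the highest 8. On the haematoendothelial list, 5 of the 7 genes at the minimum were called higher (Fli1, Gata2, Egfl7, Ramp2 and Hhex). All of these but Egfl7 were below 20 CPM in streak-rule cells and reached it only through the cells of the rule. Their count is therefore a description. The lowest 8 were Oasl2, Igfbp3, Slit2, Isg15, Fst, Meis2, Kcnj3 and Nrcam. Fst, which encodes the activin antagonist follistatin, was at 39.5 against 258 CPM, Meis2, a homeobox factor, at 48.0 against 262 CPM, and the interferon-induced Isg15 at 29.2 against 195 CPM. Of the streak genes outside the streak rule, Fgf8 was at 89.3 against 431 CPM. Wnt3 was at 51.0 against 50.8 CPM and Lhx1 at 76.6 against 65.7 CPM.

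Within the population, the 26 cells with Hand1 and no vessel gene differed from the 107 cells with vessel genes and no Hand1. The Hand1-only cells had more keratin mRNA and less Fli1. Because these subsets are small, 100 CPM on the higher side was required. Outside the rule genes, Fli1 was the only gene of the haematoendothelial list to reach it, so no other could be called. Of 2114 genes, 61 were called higher in the Hand1-only cells (2.89%) and 37 lower (1.75%). Krt8 was at 723 CPM (611 to 849) in Hand1-only cells against 85.8 CPM (67.4 to 108) in vessel-only cells. Krt18, its partner in simple epithelia, was at 290.1 against 23.2 CPM. At least 5 UMIs of Krt8 and Krt18 together were found in 12 of the 26 Hand1-only cells (46.2%, 26.6 to 66.6%). This was so in 1 of the 107 vessel-only cells (0.935%, 0.0237 to 5.10%), and in 4 of the 64 cells with both. The summed keratin UMIs in Hand1-only cells had a lowest value of 0, a median of 3.5 and a highest of 59. The epithelial adhesion list, which holds both keratins, summed to 1962 CPM in Hand1-only cells, 650 in cells with both and 525 in vessel-only cells. Cdh1 was also called higher in Hand1-only cells, with 31 UMIs in 10 of the 26. How this bears on a mesoderm identity of the Hand1-only cells was not tested. Fabp3, S100a6, Sfn and Smim40 were also higher in Hand1-only cells; Fabp3 was at 497 against 83.5 CPM, and at 445 CPM in cell-free droplets. A single cell held 42.4% of the Krt18 UMIs of the 26 cells, 39.6% of the Fabp3 UMIs, 38.0% for Sfn, 34.8% for Smim40, 23.9% for S100a6 and 23.1% for Krt8. Rhox6 and Rhox5, homeobox genes of the X-linked Rhox cluster, were higher there too, but a single cell held 76.3% of the Rhox6 UMIs, and a single cell 50% of the Rhox5 UMIs. Marked doublets were 4 of the 26 and 21 of the 107.

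Fli1 was at 4.92 CPM (0.12 to 27.4) in Hand1-only cells, from 1 UMI, against 111 CPM (90.1 to 136) in vessel-only cells. Fgf10 was at 29.5 against 265 CPM and Eomes at 39.3 against 211 CPM. Zfp608, Asb4, Rbfox1, Car2 (which encodes carbonic anhydrase II) and Frmd4b were the others of the lowest 8. Gata2, Hhex, Sox7 and Cdh5 had no UMI in the 26 cells, against 35.9, 56.8, 24.3 and 19.7 CPM in vessel-only cells. Runx1 was closer, at 78.7 against 71.9 CPM, and so was Pmp22, at 285 against 252 CPM. Foxf1, a forkhead gene of lateral plate and extraembryonic mesoderm, was at 24.6 CPM in Hand1-only cells, 36.2 CPM in cells with both and 4.64 CPM in vessel-only cells.

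**Figure D4:**
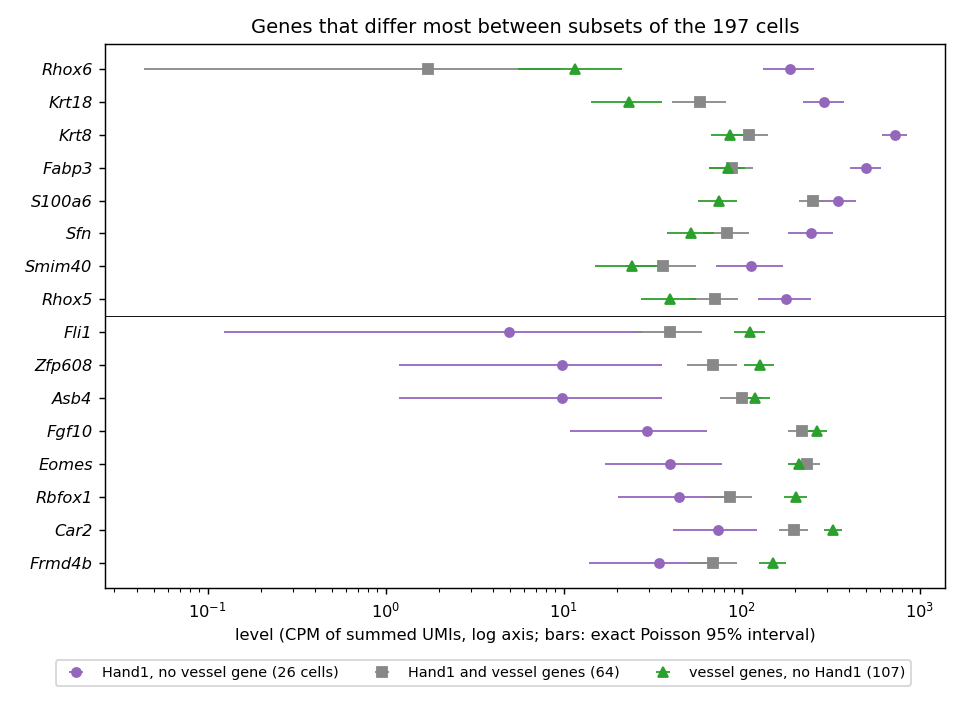
Level in CPM (log axis, exact Poisson 95% intervals) of the 8 genes highest and the 8 lowest in Hand1-only cells (26) against vessel-only cells (107), with the 64 cells of both kinds between them. Krt8 stood at 723, 110.4 and 85.8 CPM, and Fli1 at 4.92, 39.7 and 111 CPM.

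Cells that also met the streak minimum had less Fli1, Ramp2 and H19 and more Tdgf1 than the rest of the population. Of 2053 genes at 100 CPM or more on a side, 35 were called higher in the 90 streak-positive cells (1.7%) and 16 lower (0.779%). Fli1 was at 20.5 CPM in the 90 cells against 126 CPM in the 107 others. Ramp2 was at 19.3 against 100.3 CPM and H19 at 50.7 against 262 CPM. Tdgf1, which encodes the NODAL co-receptor Cripto, was at 314 against 105 CPM. In the 49 cells with a Tal1 UMI, Fli1 was at 189 CPM, Egfl7 at 131 CPM, Ramp2 at 119 CPM and Hhex at 63.1 CPM, each above its level in all 197 cells. In these 49 cells Mesp1 was at 42.1 CPM, and Foxf1 had no UMI.

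The cells of the rule carried mostly 1 of the 2 sample tags, lipid-anchored oligos used to mark cells before pooling. CMO312 had a median of 2784 UMIs per cell (114 to 11318), against 1145 in streak-rule cells, 396 in other kept cells, 333 in naive-rule cells and 340 in 72027 cell-free droplets. CMO311 had a median of 878 UMIs, against 1425, 1058, 1134.5 and 830 in the same order. More CMO312 than CMO311 was found in 166 of the 197 cells (84.3%, 78.4 to 89.1%), in 48.0% of streak-rule cells and in 23.7% of other kept cells. Seen from the tags, the rule took 166 of the 4113 kept cells with more CMO312 (4.04%, 3.46 to 4.68%) and 31 of the 12728 others (0.244%, 0.166 to 0.346%). The deposited tag table left 196 of the 197 cells unassigned and gave 1 to CMO311. Neither tag name matches a culture in the labels, so which culture the cells came from is not known here. The share was 76.9% in Hand1-only cells, 90.6% in cells with both and 82.2% in vessel-only cells.

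**Figure D5:**
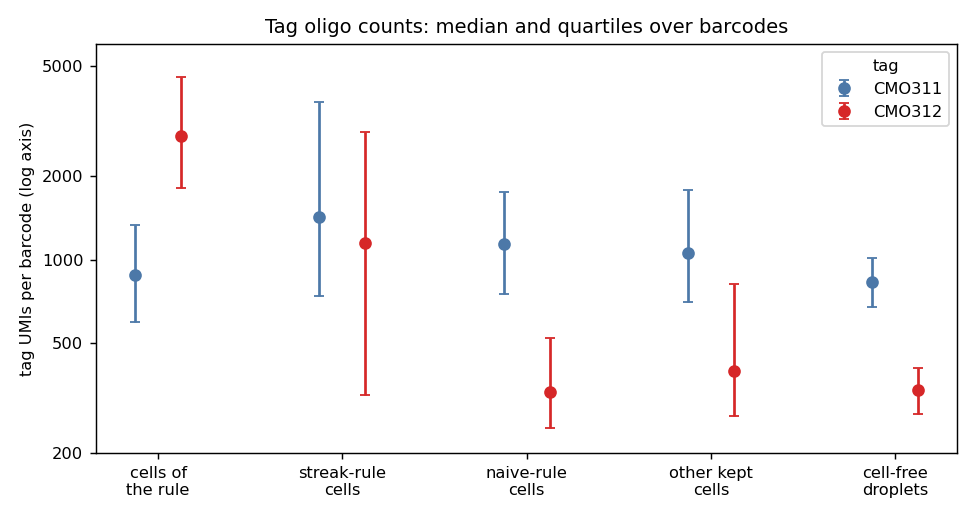
Tag UMIs per barcode (log axis; points are medians, bars run between the quartiles) for tags CMO311 and CMO312. CMO312 had a median of 2784 in the cells of the rule, against 1145 in streak-rule cells and 333 to 396 in the other 3 sets.

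The tag moved with the population, so the comparison was repeated among cells with more CMO312 only, an alternative added after seeing the data. Among these, 342 genes were called higher in the 166 cells of the rule than in the 3947 others (4.70%) and 392 lower (5.38%). Prdm6 was at 335 against 24.2 CPM, Pmp22 at 291 against 26.6 CPM, Gata4 at 95.2 against 9.20 CPM and Fli1 at 72.1 against 3.38 CPM. T, at 49.1 against 24.3 CPM, and Krt8, at 192 against 114 CPM, were below 2-fold there. Ccl2 was at 4.46 against 3.63 CPM, so its low level against all other kept cells was not found among cells of that tag. In the 31 cells of the rule with at least as much CMO311, Prdm6 was at 199 CPM against 1.18 CPM in the 12697 others, and Fli1 at 76.4 against 1.51 CPM. Against streak-rule cells of the same tag, 83 genes were called higher and 107 lower in the CMO312 cells. The part that the tag plays in the other differences was not tested.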

How the data were processed

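Droplet-based single-cell RNA-seq was described for 2 mouse samples. Per the file headers, the deposited gene matrix was made with Cell Ranger 8.0.1 and holds raw UMI counts for 33696 genes and 12 tags in 2578653 barcodes, all in 1 library, whereas the labels describe separate channels. Per the submitters' processing notes Seurat was used, with no version stated. The deposited tag table holds, for each called cell, its tag call and the probability of that call as a fraction; the cells of the rule had a median probability of 0.672. Genome build and annotation: not given in the sources used here. All 26 features that repeat a symbol were added to it.

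Counts were summed over cells and divided by the total to give CPM (Python 3.11.15, NumPy 2.4.6, SciPy 1.17.1, pandas 2.3.3), with exact Poisson intervals; shares have exact binomial (Clopper-Pearson) intervals, both at 95%. Log2 ratios used 1 CPM added. With 1 library and no replicates, no test, standard error or p-value was computed. Free RNA was not removed, and barcodes that were not called and held 150 to 300 UMIs stood for cell-free droplets. Doublets were called with Scrublet in scanpy 1.11.5 (expected rate 0.1) and kept, except in 1 alternative. The calling procedure was tested on simulated Poisson counts with known fold changes. These held no cell-to-cell spread, doublets or selection by rule UMIs. The simulation therefore says nothing on genes whose UMIs lie mostly in a single cell. Genes named are the rule genes, the 25 highest and 12 lowest against other kept cells, the 8 highest and lowest against streak-rule cells and between the subsets, and up to 4 per list for 30 lists, with provisional, mitochondrial, ribosomal and rule genes left out; further list genes were picked for their role. The cells, lists and comparisons were chosen with earlier results of these data known.

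Alternatives changed the UMI minimum, the cell filter, doublets, totals, pseudocount, CPM minimum and thinning; 2 more, on tags and on depth, were added after seeing the data.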

Additional observations from a re-analysis of the deposited data

Results flagged for a closer look

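A low signal appeared in tags that the tag table does not use. Tag CMO301 had 10 UMIs over the 197 cells of the rule, a mean of 0.0508 per cell against 0.0121 in cell-free droplets. Tag CMO306 had 7 UMIs, a mean of 0.0355 per cell against 0.0029 in cell-free droplets. Both are small beside the mean of 3276 UMIs per cell of tag CMO312 in the same cells.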

How the results depend on the processing

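Of 192 values recomputed for the main results, 152 stayed within 1.5 times (counts) or within their interval (medians), and 40 moved. The population held 343 cells with at least 2 rule UMIs, 103 with at least 5 and 115 among cells of 5000 to 10000 UMIs. Genes higher than in other kept cells numbered 190 at a minimum of 50 CPM, 871 with no minimum and 558 among cells of 5000 to 10000 UMIs. Genes lower numbered 150 with 2 rule UMIs, 629 without doublets, 187 with a pseudocount of 10 CPM, 162 at 50 CPM, 1825 with no minimum and 669 at that depth. Against streak-rule cells, higher genes numbered 99 with the pseudocount of 10, 69 at 50 CPM, 676 with no minimum and 83 in cells with more CMO312. Lower genes there numbered 323 without doublets, then 97, 56, 1218 and 107 under those same settings, and 375 among cells of 5000 to 10000 UMIs. Between Hand1-only and vessel-only cells, higher genes numbered 133 with 5 rule UMIs, 96 with 3 per 10000 UMIs, 119 without doublets, 93 without mitochondrial and ribosomal genes in the total and 195 at that depth. Lower genes numbered 107, 74, 85, 75 and 122 in the same order, 17 with 2 rule UMIs and 72 with more CMO312. The haematoendothelial list had 3 genes higher at 50 CPM and 12 with no minimum. The naive list had 5 lower with a pseudocount of 10, at 50 CPM and in cells with more CMO312, and the primed list had 3 lower with 2 rule UMIs. Of 1568 single-gene values, 1513 kept their call, 37 lost it, 17 gained it and 1 reversed: Ccl2, with a log2 ratio of 0.24 in cells with more CMO312. The cause was not tested. Requiring 2 rule genes leaves no Hand1-only cells, so that comparison gave no value. No paired analysis was possible because cells could not be tied to samples. Depth limits the 26 Hand1-only cells most, which hold 203399 UMIs in all.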
